A study of Mus musculus with 26 samples.

Results

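A set of 10 genes of endoplasmic reticulum (ER)-associated degradation, Herpud1, Derl1, Derl2, Derl3, Edem1, Edem2, Edem3, Sel1l, Syvn1 and Os9, were followed in the choroid plexus (ChP) of the 4th ventricle of adult male mice. They were chosen by symbol from the 55416 genes of the count tables, with earlier results of these data known. All 10 were found and passed the minimum of a mean of 1 CPM (read counts scaled to the size of the library) in each group, which 13697 genes did. Ctrl were 12 sham-operated C57Bl6J mice and SCNx 12 C57Bl6J mice with the suprachiasmatic nuclei, the site of the central clock, surgically destroyed. Both groups were entrained to LD12:12, released into constant darkness, and sampled with 1 mouse of each group every 4 h from CT0 to CT44. Each time in each group was thus 1 animal, so that time and individual cannot be told apart at any one point. The lesion had been checked by the absence of locomotor rhythms and, after death, by histology. The KO group was 1 mouse at ZT7 and 1 at ZT18 of the genotype FoxJ1-ERT2-Cre+/-; Bmal1fl/fl, fed tamoxifen and kept in the light-dark cycle. The Foxj1 promoter drives this Cre in cells that express Foxj1 and not in other cells of the tissue, the KO tissue was laser-captured from frozen brain, and no Cre-negative littermate was analysed here.

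ER-associated degradation removes proteins that fail to fold in the ER. Lectins and mannosidase-like proteins pick out such glycoproteins in the lumen, a membrane complex around the ubiquitin ligase Syvn1 (Hrd1) and its partner Sel1l passes them through the membrane, and the cytosolic proteasome destroys them. Many of these genes are known targets of the unfolded protein response, in which Xbp1, Atf6 and Ern1 (Ire1) sense or transmit ER load. The ChP epithelium is a secretory tissue that makes cerebrospinal fluid and exports large amounts of transthyretin.

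The tissue label held: the summed CPM of 10 ChP epithelial markers (Ttr, Folr1, Enpp2 and others) ranged from 144200 to 167700 in Ctrl and from 107000 to 168200 in SCNx, against 87240 and 82930 in KO. The Ctrl and SCNx libraries held 38751201 to 49527655 estimated counts and the KO libraries 17425207 and 18059227. Ctrl CT16, SCNx CT0, Ctrl CT4 and SCNx CT32 stood apart by markers of hepatocytes or neurons. The summed hepatocyte markers were at 2349 CPM for Ctrl CT16 and at 10960 for SCNx CT0, and at most at 36.3 in the other Ctrl and SCNx libraries. Neuron markers summed to 338.8 CPM in Ctrl CT4 and 447.1 in SCNx CT32, against at most 74.7 in the others. SCNx CT4 stood apart by granulocyte precursor markers, with a sum of 33.4 CPM, against at most 1.18 in Ctrl. The clock genes followed the labels of Ctrl and SCNx: Arntl (Bmal1) ranged from 2.01 to 39.4 CPM in Ctrl and from 3.27 to 21.8 in SCNx. In the KO libraries, Arntl stood at 10.6 CPM at ZT7 and 9.36 at ZT18, and since these counts cover the whole gene and whole tissue, they do not measure the deleted part.

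The stretches upstream of the start site carry the sequence elements through which the unfolded protein response is known to act. The ER stress element is CCAAT, 9 bases and CCACG, ERSE-II is ATTGG, 1 base and CCACG, and CCACG is contained in both. RefSeq windows of 300 bases (250 before and 50 after the start, GRCm38.p6) were at hand for 9 of the 10 members, with 10 windows in all, 2 of them of Derl2. On either strand, the full ER stress element was found in the windows of Derl3 and Syvn1, against 39 of 32851 windows in the table (0.119%). ERSE-II was found in the window of Herpud1, against 12 windows of the table (0.0365%). CCACG alone stood in a window of each of the 9 members, against 32.8% of all windows. The E-box CACGTG, the site of CLOCK and BMAL1, was found in the Derl3 window only among the members, against 7.15% of all windows, and it overlaps a CCACG there. No member window held TGACGTG (2.01% of all), the D-box forms TTATGTAA or TTATGCAA (1.66%), or the 2 arrangements of 3 alternating GAA and TTC units spaced by 2 bases of the heat shock element (0.603%). These matches are descriptions of letters and no measurement of binding. The 250 upstream bases are shown for the 3 members with a full element and for Os9, which has CCACG only. They lie at chr8:94386179-94386428 (plus strand), chr10:75893148-75893397 (plus), chr19:6046326-6046575 (plus) and chr10:127121161-127121410 (minus), are written 5′ to 3′, and the capitals mark the letters of ER stress elements, CCACG and CACGTG.
Herpud1: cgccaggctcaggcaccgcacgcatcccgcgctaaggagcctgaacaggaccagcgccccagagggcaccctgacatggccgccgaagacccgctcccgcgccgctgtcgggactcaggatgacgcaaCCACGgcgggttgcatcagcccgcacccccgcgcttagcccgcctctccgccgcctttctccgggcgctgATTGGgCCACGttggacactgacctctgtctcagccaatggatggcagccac
Derl3: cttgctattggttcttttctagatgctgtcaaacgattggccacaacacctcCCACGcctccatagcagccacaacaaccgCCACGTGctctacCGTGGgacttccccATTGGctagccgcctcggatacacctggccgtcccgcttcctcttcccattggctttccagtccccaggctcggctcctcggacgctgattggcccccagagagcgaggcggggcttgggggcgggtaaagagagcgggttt
Syvn1: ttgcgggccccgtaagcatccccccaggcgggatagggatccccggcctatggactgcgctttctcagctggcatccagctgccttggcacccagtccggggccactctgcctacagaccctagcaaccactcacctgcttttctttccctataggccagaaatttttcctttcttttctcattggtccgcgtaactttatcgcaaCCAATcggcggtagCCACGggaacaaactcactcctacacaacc
Os9: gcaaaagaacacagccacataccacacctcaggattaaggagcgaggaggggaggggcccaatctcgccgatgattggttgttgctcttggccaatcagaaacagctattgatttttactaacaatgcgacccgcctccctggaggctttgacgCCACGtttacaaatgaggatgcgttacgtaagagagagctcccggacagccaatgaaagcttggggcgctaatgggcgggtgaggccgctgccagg

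In Ctrl, 6 of the 10 members passed the test for a 24 h rhythm (Herpud1, Derl2, Derl3, Syvn1, Edem1 and Sel1l), against 1459 of 13697 genes (10.7%). All 6 peaked in the subjective night, between CT17.1 and CT20.3, and of all 1459 rhythmic genes 513 (35.2%) peaked between CT16 and CT22. The members were chosen with earlier results of these data known, so these counts are no independent support. In these libraries the study had already described Derl2, Derl3 and Herpud1 as rhythmic. Of 59 further genes of the pathway, 6 (10.2%) were called. For the rhythm, the quasi-likelihood F test of edgeR was applied to one model of a mean, a cosine and a sine per group, and p was adjusted over all 13697 genes after Benjamini and Hochberg (BH), with a threshold of 0.05. At an unadjusted p under 0.05 the members numbered 7, against 24.8% of all genes. Amplitudes with an SE are log2 values from a least-squares curve on log2 CPM (12 mice), the fitted distance from the mean to the peak. The median amplitude of the 10 members in edgeR's fit was 0.249, against 0.110 over all genes tested. As these are bulk samples, fewer cells of a type and less RNA per cell cannot be told apart.

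**Figure D1:**
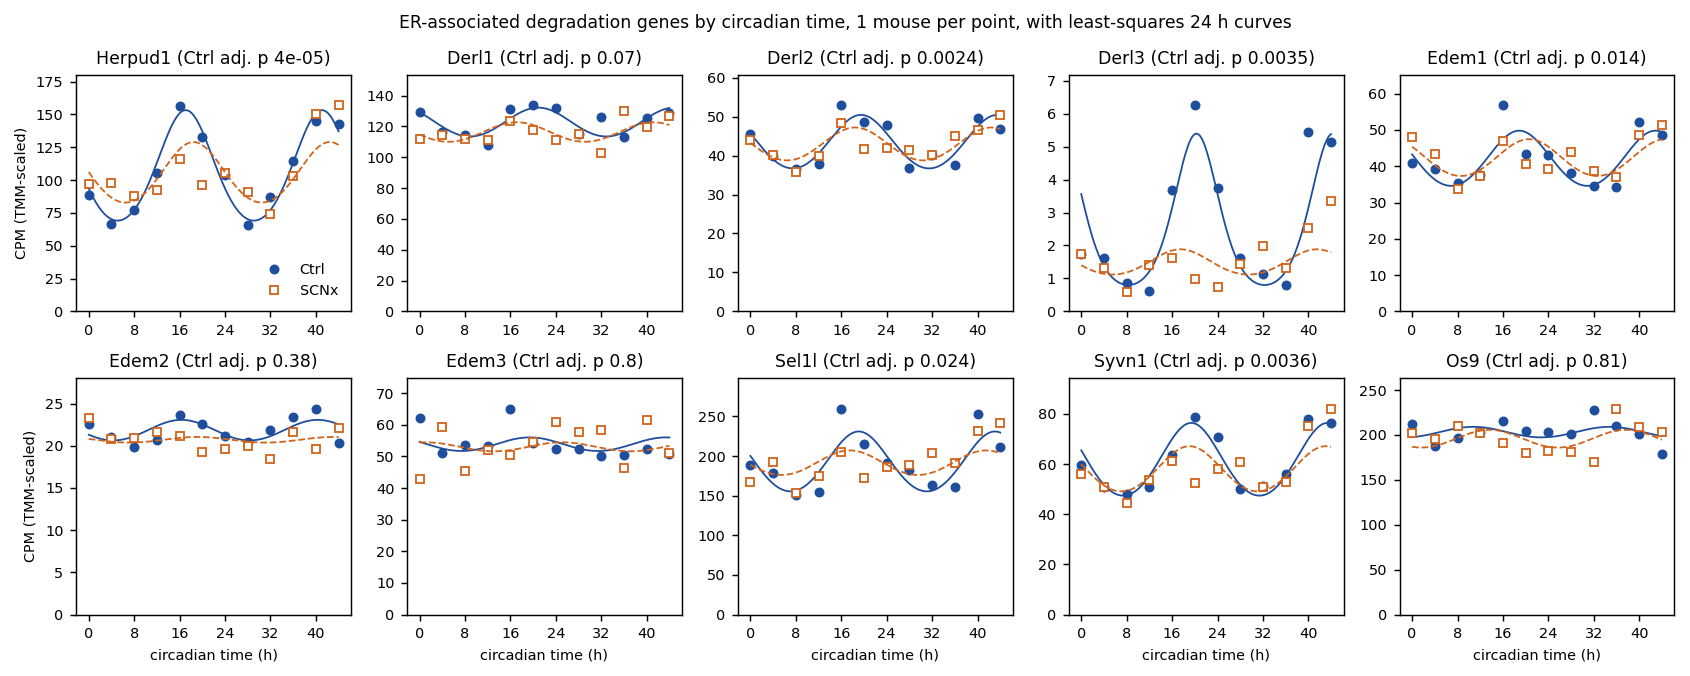
CPM of each member (y axis, from 0) against circadian time in h (x axis), with 1 mouse per point, Ctrl as filled circles with solid least-squares curves and SCNx as open squares with dashed curves. Herpud1, Derl3 and Syvn1 rise and fall over both Ctrl days, and in SCNx the points at CT40 and CT44 stand highest for Herpud1, Derl3, Edem1, Sel1l and Syvn1.

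Herpud1 (ENSMUSG00000031770, chr8:94386438-94395377 of GRCm38, plus strand) encodes an ER membrane protein with a ubiquitin-like domain that brings components to the Syvn1 complex. It had the smallest p of the members. In Ctrl its lowest, median and highest values were 65.7 CPM (CT28), 105 CPM and 156 CPM (CT16). The 4 highest Ctrl libraries were CT16, CT40, CT44 and CT20, of which the lowest held 132.9 CPM, and the next library held 114.5. The same hours of both days were thus the highest. The amplitude was 0.57 ± 0.04 (SE, n = 12), a 2.22-fold swing from trough to peak, with the peak at CT17.1 ± 0.28 h (edgeR adjusted p = 3.99e-05). The call held in all 35 alternative analyses, with adjusted p between 1.88e-13 and 0.00548.

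Syvn1 (ENSMUSG00000024807, chr19:6046576-6053712, plus) is the ubiquitin ligase itself. It ranged in Ctrl from 48.05 CPM (CT8) over a median of 57.8 to 78.7 CPM (CT20). CT20, CT40, CT44 and CT24 were its 4 highest Ctrl libraries. The amplitude was 0.34 ± 0.04 and the peak CT19.4 ± 0.49 h (edgeR adjusted p = 0.00365). Its exons overlap those of Mrpl49 on the other strand in GENCODE M21. Mrpl49, a mitochondrial ribosomal protein gene, had a mean of 43.8 CPM in Ctrl and an edgeR amplitude of 0.06 (adjusted p = 0.653).

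Sel1l (ENSMUSG00000020964, chr12:91806043-91849157, minus) encodes the adaptor that holds the ligase complex together. Its lowest Ctrl value was 151 CPM at CT8, its median 185 and its highest 260 CPM at CT16. Its 4 highest Ctrl libraries were again CT16, CT40, CT20 and CT44 (211.6 CPM and above), and the next stood at 191.5. The amplitude was 0.29 ± 0.07 with the peak at CT19.1 ± 0.92 h (edgeR adjusted p = 0.0239). This call rested on single libraries: without Ctrl CT8 the adjusted p of Sel1l was 0.0716, and without Ctrl CT40 it was 0.0512. The 4 highest Ctrl libraries being CT16, CT20, CT40 and CT44 held for 3 members (Herpud1, Edem1, Sel1l), against 139 of 13697 genes (1.01%). These 4 times were picked out after the values had been seen.

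The derlins are membrane proteins thought to form part of the exit channel. The 3 derlins differed widely in level and in the size of their rhythm. Derl3 (ENSMUSG00000009092, chr10:75893413-75895941, plus), known for its presence in secretory cells, had the fewest reads and the largest amplitude of the members. In Ctrl it ranged from 0.616 CPM at CT12 over a median of 1.68 to 6.25 CPM at CT20. The reads behind these values numbered 29 at CT12 and 248 at CT20. Ctrl CT20, CT40, CT44 and CT24 held 6.25, 5.43, 5.14 and 3.74 CPM, and Ctrl CT16 held 3.69. The low points were CT8, CT12 and CT36, each under 1 CPM, and CT12 and CT36 are the same hour of both days. The amplitude was 1.38 ± 0.25, a 6.75-fold swing, peaking at CT20.3 ± 0.69 h (edgeR adjusted p = 0.00352). The 7 plasma cell markers summed to between 12.7 CPM (CT40) and 20.8 CPM (CT16) in Ctrl and to between 12.8 CPM and 54.0 CPM (CT0) in SCNx. Of these, Mzb1 and Tnfrsf17 stayed under 1 CPM in all 24 libraries, while Sdc1 reached 42.95 CPM (SCNx CT0), Ighm 15.1 CPM and Igha 3.53 CPM (both SCNx CT32). The highest SCNx sums, at CT0, CT32 (27.7 CPM) and CT44 (24.8 CPM), fell in libraries that were among the 4 highest SCNx libraries of Derl3. Most of the CT0 sum was Sdc1, in the SCNx library with the most hepatocyte markers (10960 CPM). In Ctrl, too, Sdc1 was highest in the library with the most hepatocyte markers, CT16 (14.87 CPM). The CT0 sum is thus no measure of plasma cells alone. The part of the plasma cell markers in the values of Derl3 was not tested.

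Derl2 (ENSMUSG00000018442, chr11:71007164-71019841, minus) moved by a smaller margin and with little scatter. Its Ctrl values lay between 36.6 CPM (CT8) and 52.9 CPM (CT16) with a median of 42.8. The amplitude was 0.23 ± 0.04 and the peak CT19.5 ± 0.68 h (edgeR adjusted p = 0.00239). The exons of Derl2 overlap those of Mis12, a kinetochore gene on the other strand, which had 24.1 CPM in Ctrl, an edgeR amplitude of 0.14 and a peak at CT19.5 (adjusted p = 0.061). Whether reads of these overlapping pairs were shared was not tested. Derl1 (ENSMUSG00000022365, chr15:57869502-57892448, minus) ranged from 108 CPM at CT12 to 134 CPM at CT20 with a median of 126. Its amplitude was 0.11 ± 0.03 around CT20.9, and it did not pass the threshold (edgeR adjusted p = 0.0696). It came under 0.05 in 6 of 35 alternatives, which were DESeq2 (adjusted p = 0.0378), a minimum of 5 CPM (edgeR adjusted p = 0.0428), and the edgeR fits without Ctrl CT32 (0.0182), SCNx CT32 (0.0376), SCNx CT36 (0.0424), or Ctrl CT4 and SCNx CT32 together (0.0483).

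Of the lumenal members, only Edem1 passed the test. The EDEM proteins trim mannose from misfolded glycoproteins, which marks them for removal, and Os9 is the lectin that reads the trimmed glycan. Edem1 (ENSMUSG00000030104, chr6:108828641-108859356, plus) ranged in Ctrl from 34.2 CPM (CT36) to 56.8 CPM (CT16) around a median of 40.1, with an amplitude of 0.26 ± 0.06 and a peak at CT18.9 ± 0.89 h (edgeR adjusted p = 0.0142). Edem2 (ENSMUSG00000038312, chr2:155701677-155729475, minus) stayed between 19.9 and 24.4 CPM and had an amplitude of 0.08 ± 0.03 (adjusted p = 0.376). Edem3 (ENSMUSG00000043019, chr1:151755371-151822051, plus) stayed between 50.2 and 65.1 CPM, with its highest Ctrl values at CT16 and CT0 (amplitude 0.06 ± 0.05, adjusted p = 0.796). Os9 (ENSMUSG00000040462, chr10:127095650-127121131, minus) varied least in proportion in the least-squares curve, with an amplitude of 0.04 ± 0.04 (adjusted p = 0.807). Its Ctrl values lay between 178 CPM at CT44 and 228 CPM at CT32. These 3 lumenal members and Derl1 were the ones without a call.

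Ctrl CT16, the Ctrl library with the most hepatocyte RNA, was the highest Ctrl library of Herpud1, Derl2, Edem1, Edem3 and Sel1l. The 6 calls were the same in the fit without it and SCNx CT0, with an edgeR adjusted p of 0.000268 for Herpud1 and 0.00595 for Derl3. Without Ctrl CT4 and SCNx CT32 the same 6 were called and Derl1 was added. In that fit 2223 of 13490 genes were called over all, against 1459 of 13697 in the main fit. The rank test after eJTK called 4 of the 6 (Herpud1, Edem1, Sel1l and Derl3), with BH-adjusted p of 0.0667 for Syvn1 and 0.0766 for Derl2. Over all genes the rank test called 923 of 13697.

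The members resembled each other to different degrees. Over the 12 Ctrl libraries, the Pearson r of a member's log2 CPM with the mean standardised profile of the other 9 was 0.96 for Derl2, 0.89 for Sel1l and 0.83 for Edem1, and between 0.74 and 0.79 for Herpud1, Derl1, Derl3 and Syvn1. It was 0.62 for Edem2, 0.44 for Edem3 and 0.05 for Os9. In SCNx the values were 0.89 for Derl2, 0.77 for Sel1l, 0.76 for Edem1, 0.89 for Herpud1, 0.62 for Derl1, 0.72 for Derl3 and 0.88 for Syvn1. They were 0.21 for Edem2, -0.08 for Edem3 and 0.23 for Os9. These points share their libraries, depth and scaling, and the values are descriptive.

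**Figure D2:**
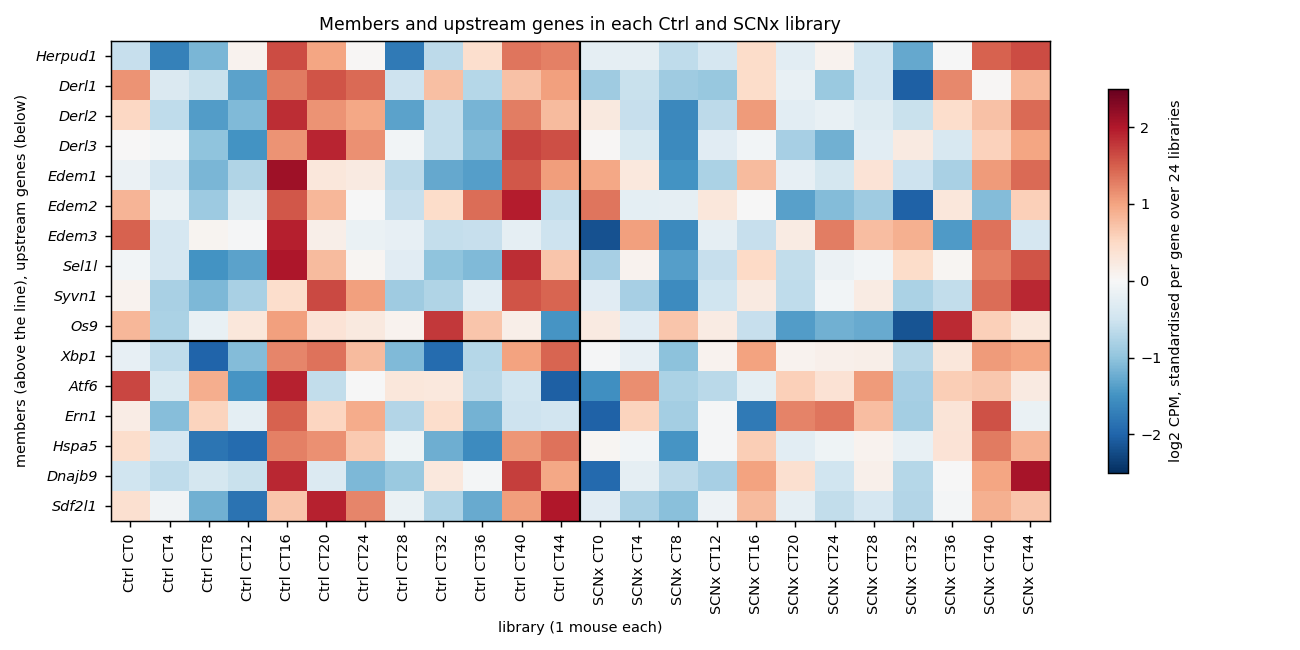
Log2 CPM standardised per gene over the 24 libraries (colour, red above and blue below the gene's mean), with members above the line. Below it are the genes of the unfolded protein response that the axis labels upstream. Ctrl is left and SCNx right, in order of circadian time. Ctrl shows red blocks at CT16, CT20, CT40 and CT44 for most members, and at CT24 mainly for Derl1, Derl2, Derl3 and Syvn1. In SCNx the red is mainly at CT40 and CT44, and Edem3 and Os9 show no such blocks.

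Genes outside the list with the profile most like the members' mean were ER genes in part. Over the 12 Ctrl libraries the highest r were those of Stt3b (0.96), a catalytic subunit of the oligosaccharyltransferase, Ficd (0.96), which modifies BiP, and Erp44 (0.96), a chaperone of the early secretory pathway. They were followed by Mgat2 (0.96), a Golgi enzyme of N-glycan processing, Ears2 (0.95), a mitochondrial glutamyl-tRNA synthetase, Pdia4 (0.94), a protein disulfide isomerase, Gpr137c (0.92) and Armcx3 (0.92). In SCNx the same r was 0.77 for Stt3b, 0.68 for Ficd, 0.73 for Erp44, 0.85 for Pdia4 and 0.77 for Ears2. It was 0.18 for Mgat2, 0.13 for Armcx3 and -0.19 for Gpr137c. As these genes were picked for their r in Ctrl, lower values in SCNx follow in part from the choice. For Derl3 alone the closest genes in Ctrl were Nus1 (r = 0.97), which works in dolichol synthesis, Ppa1 (0.97), an inorganic pyrophosphatase, Sdf2l1 (0.97), an ER cochaperone, Manf (0.97), a secreted ER stress protein, and Ero1b (0.96), an ER oxidase. Their r with Derl3 in SCNx were 0.34, 0.14, 0.70, 0.81 and 0.47.

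In SCNx, no member passed the test for a 24 h rhythm in edgeR, and no gene of all 13697 did (0%), with the smallest adjusted p over all genes at 0.137. At an unadjusted p under 0.05 there were 4 members (Herpud1, p = 0.00028, Syvn1, 0.0051, Derl2, 0.00696, and Edem1, 0.026), against 14.8% of all genes. DESeq2 called 432 genes in SCNx, and among the members Herpud1 (adjusted p = 0.0112) and Syvn1 (adjusted p = 0.04997). Limma-trend called 0 genes, and so did the rank test. Without a filter on low counts edgeR called 1384 genes and the same 2 members, Herpud1 with an adjusted p of 0.00257 and Syvn1 with 0.0281. The SCNx curve describes what the 12 animals had in common by the clock, so that a rhythm lost in each animal and rhythms out of step between animals cannot be told apart.

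Several members, but not all, had their highest SCNx values at the end of the series. In SCNx, Herpud1 ranged from 74.3 CPM at CT32 over a median of 97.4 to 157 CPM at CT44, and CT40 held 150.5 CPM while the third highest library, CT16, held 115.9. Derl3 ranged from 0.579 CPM at CT8 over a median of 1.42 to 3.34 CPM at CT44, with 2.54 at CT40 and 1.99 in the third highest library. Syvn1 stood at 82.1 CPM at CT44 and 75.3 at CT40 and at 61.1 in the third. For 5 of the 10 members (Herpud1, Derl3, Edem1, Sel1l, Syvn1) CT40 and CT44 were the 2 highest SCNx libraries, against 121 of 13697 genes (0.883%), a pattern that was noticed in these values. The erythrocyte genes summed to 6560 CPM in SCNx CT44, against 150.1 to 1436 in the other 11 SCNx libraries. SCNx CT40, with 390.6 CPM, was inside that range, and the part of these genes in the values at CT44 was not tested. Without SCNx CT40 and CT44, a setting added after the values were seen, 1 member, Herpud1 (p = 0.0227), had an unadjusted p under 0.05 for a rhythm in SCNx. In that fit the edgeR amplitudes in SCNx were 0.17 for Herpud1 (0.33 with both libraries), 0.10 for Syvn1 (0.24), 0.03 for Sel1l (0.12) and 0.10 for Derl3 (0.39). As these libraries were picked for their high values, lower amplitudes without them follow in part from the choice.

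The difference of the rhythm between SCNx and Ctrl was called for no member in edgeR, against 291 of 13697 genes (2.12%), and DESeq2 and limma-trend also called 0 members. At an unadjusted p under 0.05 there were 2 members, against 15.1% of all genes. They were Herpud1 (p = 0.0215, adjusted p = 0.236) and Derl3 (p = 0.0234, adjusted p = 0.244). The least-squares amplitude was lower in SCNx than in Ctrl for 9 of the 10 members, as it was for 55.2% of all genes in edgeR's fit. Over the members the median edgeR amplitude was 0.131 in SCNx, against 0.0913 over all genes. For Derl3 the amplitude was 1.38 ± 0.25 in Ctrl and 0.38 ± 0.29 in SCNx, a difference of 1.0 with a 95% interval from 0.20 to 1.80. For Herpud1 it was 0.57 ± 0.04 in Ctrl and 0.32 ± 0.09 in SCNx, a difference of 0.26 (95% interval 0.05 to 0.46). These intervals are not adjusted for the number of genes. The intervals of the other 8 members included 0, for example -0.05 to 0.38 for Sel1l, -0.08 to 0.32 for Syvn1 and -0.03 to 0.21 for Derl2. Os9 had the larger amplitude in SCNx, 0.07 ± 0.05 against 0.04 ± 0.04. Without SCNx CT40 and CT44 the difference was called for 1 member, Herpud1 (edgeR adjusted p = 0.0179), against 170 of 13696 genes. These libraries were picked for their high values, at hours when Ctrl was also high. Leaving them out lowers the SCNx amplitude of Herpud1 by that choice, so this call is no support for a difference. The fitted peak of Herpud1 was 1.37 ± 1.12 h (SE) later in SCNx than in Ctrl, and that of Syvn1 differed by -0.32 ± 1.49 h (SCNx minus Ctrl).

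**Figure D3:**
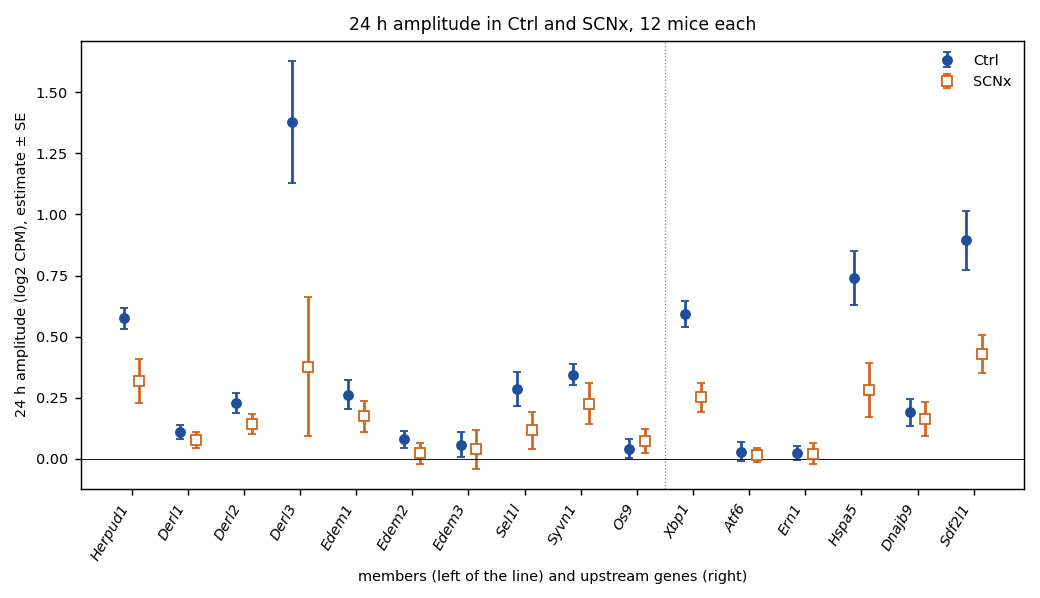
Log2 amplitude of the 24 h curve (y axis, estimate with SE as bars) in Ctrl (filled circles) and SCNx (open squares), 12 mice each, for the members left of the dotted line. Right of it are the genes of the unfolded protein response that the axis labels upstream. Derl3 has the largest Ctrl amplitude (1.38) and the widest error, and Os9 is the one member whose SCNx point lies above its Ctrl point.

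A difference in level over all times between SCNx and Ctrl was called for no member in edgeR, and for no gene (0% of 13697, smallest adjusted p 0.266), and DESeq2 called 14 genes with 0 members among them. At an unadjusted p under 0.05 there was 1 member, Derl3, against 9.37% of all genes. Derl3 had a mean of 2.72 ± 2.02 CPM in Ctrl and 1.58 ± 0.77 in SCNx (SD, n = 12 each), a log2 difference (SCNx minus Ctrl) of -0.78 ± 0.37 (SE, p = 0.0454, adjusted p = 0.514). The ranges overlapped, from 0.616 to 6.25 CPM in Ctrl and from 0.579 to 3.34 in SCNx. High libraries weigh more in this fit than in the mean log2 CPM of Derl3, 1.05 in Ctrl and 0.54 in SCNx. Over the main fit and the alternatives its difference ran from -0.95 to -0.52. DESeq2 had 1 member at an unadjusted p under 0.05. Limma-trend, the block by circadian time, and the fit without Ctrl CT16 and SCNx CT0 had 0. Herpud1 had 107 ± 31.3 CPM in Ctrl and 106 ± 24.6 in SCNx, with a 95% interval of the log2 difference from -0.33 to 0.29. As the level fit held group means only, the rhythm of a member widens its SE and interval here. Sel1l had 192 ± 36.2 and 192 ± 25.6 CPM, with an interval from -0.19 to 0.19. The intervals of Derl1 (-0.16 to 0.01) and Edem2 (-0.16 to 0.01) lay mostly below 0. The log2 difference was below 0 for 8 of the 10 members, with a median of -0.04, and below 0 for 5959 of all 13697 genes, with a median of 0.01.

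Components with a period of 12 h, known for genes of ER protein handling in other tissues, were not called for any member or any gene by edgeR in Ctrl (0%) or in SCNx (0%), and DESeq2 called 33 and 11 genes with 0 members among them. At an unadjusted p under 0.05 there were 2 members in Ctrl, Sel1l (12 h amplitude 0.19, p = 0.0125) and Edem1 (0.15, p = 0.0189), against 4.19% of all genes. Both lost this without Ctrl CT16 and SCNx CT0, where 0 members had an unadjusted p under 0.05. In SCNx there were 0 members, against 7.59% of all genes. With samples every 4 h each 12 h cycle had 3 points.

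Genes of the unfolded protein response, Xbp1, Atf6, Ern1, Hspa5, Dnajb9 and Sdf2l1, differed among themselves in Ctrl. The figures label them all upstream, but Hspa5, Dnajb9 and Sdf2l1 are chaperones or cochaperones. The study names Sdf2l1 as a target of Xbp1. Xbp1, the transcription factor activated by splicing, ranged in Ctrl from 90.8 CPM (CT8) to 212 CPM (CT44) and in SCNx from 115 to 192 CPM, with amplitudes of 0.59 ± 0.05 and 0.25 ± 0.06 (Ctrl edgeR adjusted p = 2.44e-06). Hspa5 (BiP), the main ER chaperone, ranged in Ctrl from 740 CPM at CT12 to 2169 CPM at CT44 (amplitude 0.74 ± 0.11, adjusted p = 0.000392). Sdf2l1, which assists BiP, ranged from 25.1 to 112 CPM (amplitude 0.89 ± 0.12, adjusted p = 1.52e-05). These 3 genes peaked at CT19.5, CT20.6 and CT21.0, against CT17.1 to CT20.3 for the called members. Dnajb9, a cochaperone, had an amplitude of 0.19 ± 0.06 (adjusted p = 0.0867). The sensors were not called: Atf6 had a median of 105 CPM in Ctrl and at most 118 (adjusted p = 0.859), and Ern1 lay between 36.4 and 42.3 CPM (adjusted p = 0.911). Counts per gene neither separate the spliced form of Xbp1 nor measure the activity of the sensors. A difference of rhythm between Ctrl and SCNx was called by edgeR for Xbp1 (adjusted p = 0.0316) and Sdf2l1 (adjusted p = 0.0157), and not for Hspa5 (adjusted p = 0.128), Dnajb9, Atf6 or Ern1, although Hspa5 was called by DESeq2 (adjusted p = 0.0253) and without SCNx CT8 (edgeR adjusted p = 0.0359). The call for Xbp1 was lost when any 1 of Ctrl CT8, CT32 or CT44 or SCNx CT0, CT20 or CT36 was left out, and without Ctrl CT16 and SCNx CT0 together, with adjusted p from 0.0502 to 0.0722.

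The share of rhythmic genes in the wider pathway was close to that of all genes. Of 61 further genes of ER-associated degradation, 60 were in the table by name, 59 were tested and 6 (10.2%) were called rhythmic in Ctrl, against 10.7% of all genes. Their median Ctrl amplitude was 0.0707, against 0.110 over all genes. By role the calls were 2 of 16 membrane adaptors, 1 of 9 ligases, 1 of 5 conjugating enzymes, 2 of 23 genes of extraction and shuttling, and 0 of 6 lumenal genes. The adaptors Selenok (edgeR amplitude 0.22, peak CT21.0, adjusted p = 0.000946) and Selenos (0.20, CT21.2, adjusted p = 0.00304) belong to complexes with the derlins. Ube2g2, a conjugating enzyme of the pathway, had an amplitude of 0.14 at CT20.1 (adjusted p = 0.0377), and Ubqln4, a shuttle to the proteasome, 0.21 at CT21.9 (adjusted p = 0.00812). The ligase Rnf145 peaked in the subjective day, at CT11.3 (0.22, adjusted p = 0.00434). In SCNx 0 of the 59 were called by edgeR (7 at an unadjusted p under 0.05), for the difference 0 (8 unadjusted) and for the level 0 (9 unadjusted, 0 by DESeq2). DESeq2 called Selenos in SCNx (adjusted p = 0.0356) and Selenok (0.0175), Selenos (0.0243) and Man1b1 (0.0253), an ER mannosidase, for the difference, 3 genes named here after these values were seen. The call of Ube2g2 in Ctrl was lost in 8 alternatives, among them the edgeR fits without any 1 of Ctrl CT8, CT12, CT20, CT28, CT32 and CT44 (adjusted p from 0.052 to 0.161).

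**Figure D4:**
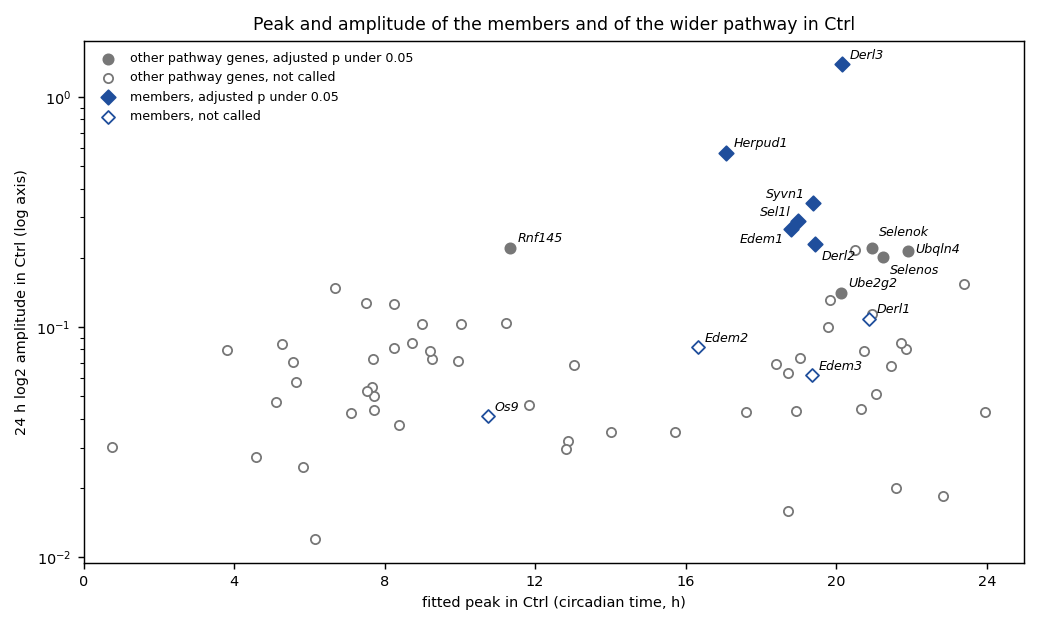
Peak time in Ctrl (x axis, circadian time in h) and log2 amplitude of edgeR's 24 h curve (y axis, log scale) of the 10 members (diamonds) and of further pathway genes (circles), filled where the adjusted p is under 0.05. The called members lie between CT17.1 and CT20.2 above an amplitude of 0.22, and Rnf145 is the called gene at CT11.3.

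Levels between members were compared per kb of exon (union of exons in GENCODE M21, GRCm38, while the counts were made on GRCm39), in CPM per kb with the mean ± SD of 12 mice. In Ctrl the order was Os9 (77.4 ± 4.86), Herpud1 (45.9 ± 13.4), Derl1 (36.9 ± 2.63), Sel1l (22.5 ± 4.23), Syvn1 (12.6 ± 2.43), Edem3 (8.46 ± 0.74), Edem1 (6.51 ± 1.12), Edem2 (6.31 ± 0.43), Derl2 (5.39 ± 0.72) and Derl3 (1.37 ± 1.02). Os9, the lectin, lay above Herpud1 in every Ctrl library, with a lowest value of 67.8 against a highest of 66.9. Derl1 did not overlap Sel1l, Sel1l did not overlap Syvn1, and Derl2 did not overlap Derl3. The neighbours Herpud1 and Derl1, Syvn1 and Edem3, Edem3 and Edem1, Edem1 and Edem2, and Edem2 and Derl2 overlapped between libraries. In SCNx the order of the means was the same. Hspa5 stood at 343 ± 131 CPM per kb in Ctrl.

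In the KO libraries, with 1 mouse per time and no test, 7 members had a ratio of ZT18 over ZT7 above 1 and the 3 derlins a ratio below 1, and with TMM scaling over the 26 libraries Edem3 (0.993) also lay below 1. Intervals are exact Poisson 95% intervals of the ratio of CPM, ZT18 over ZT7, and cover counting error only. Edem1 stood at 20.8 CPM at ZT7 and 26.1 at ZT18 (ratio 1.26, interval 1.10 to 1.45), Syvn1 at 24.1 and 29.9 (1.24, 1.09 to 1.41), Os9 at 172.7 and 213.4 (1.24, 1.18 to 1.30) and Herpud1 at 50.6 and 59.9 (1.18, 1.08 to 1.30). Derl1 had 57.3 and 47.0 CPM (0.82, 0.75 to 0.90), and Derl2 had 20.3 and 17.8 (0.87, 0.75 to 1.02). The median ratio over 13584 genes was 1.09, and 63.8% of them were higher at ZT18. The intervals of Edem1 and Os9 lay above this median, those of Derl1 and Derl2 below it, and those of the other 6 members included it, with ratios of 1.09 for Sel1l, 1.06 for Edem3 and 1.196 for Edem2. Derl3 had 14 reads in each library, 0.803 and 0.775 CPM, and its ratio of 0.96 had an interval from 0.43 to 2.18. With that scaling the ratios of Sel1l and Os9 were 1.02 and 1.155. Neuron, oligodendrocyte and astrocyte markers summed to 247.5, 309.9 and 784.1 CPM at ZT7 and to 341.6, 455.1 and 928.9 at ZT18, and their part in these values was not tested. Levels in KO and in Ctrl or SCNx cannot be compared as an effect of the genotype, since the library kit, the tissue capture and the light regime differed with it.

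**Figure D5:**
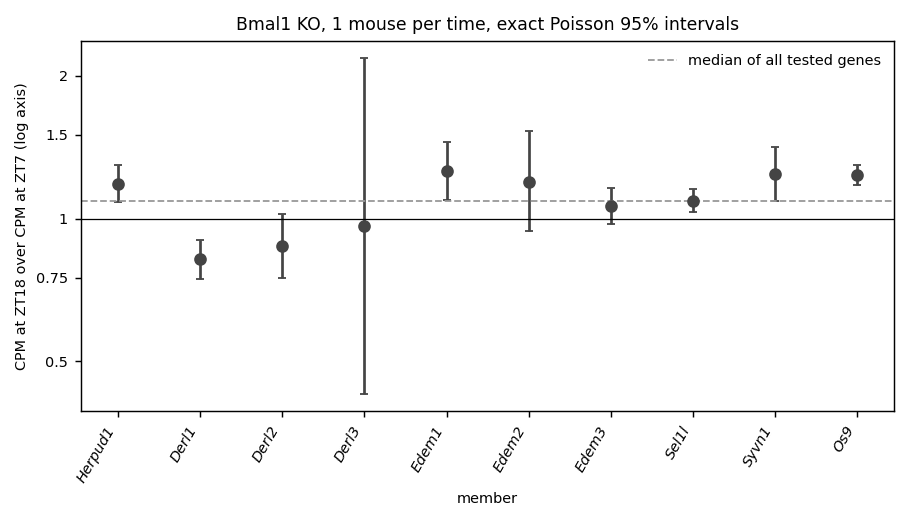
CPM at ZT18 over CPM at ZT7 in the KO libraries (y axis, log scale), 1 mouse per time, for each member, with exact Poisson 95% intervals as bars, a line at 1 and a dashed line at the median ratio of all tested genes (1.09). The points of Herpud1, Edem1, Edem2, Edem3, Sel1l, Syvn1 and Os9 lie above 1 and those of the 3 derlins below 1, and the bar of Derl3 spans 0.43 to 2.18.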

How the data were processed

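The authors deposited tables of estimated counts per gene, not normalized, for 24 Ctrl and SCNx libraries and for 2 KO libraries. Per the labels and the study's methods, reads were processed with nf-core/rnaseq on GRCm39 (Salmon 1.9.0, cutadapt 3.4, STAR). The Ctrl and SCNx libraries came from an mRNA kit and the KO libraries from a low-input total RNA kit. The estimated counts were rounded, filtered at a mean CPM of 1 in each group and scaled with TMM (factors from 0.955 to 1.08) in edgeR 4.0.16 under R 4.3.3. Sampled mice were 1 per time and group, so p-values of the curve tests measure the spread of mice around a fitted curve. Those of the level test measure the spread around the group mean, which includes any rhythm. Curve tests and the level test (group means only) used edgeR's quasi-likelihood F test with BH adjustment over 13697 genes. Log2 CPM used a prior count of 1. KO values are CPM of each library's total and were not tested. The column-to-sample map left 0 columns unused, and 0 pairs of libraries held identical counts.

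Alternatives were DESeq2 1.42.0, its size factors in edgeR, limma 3.58.1 (limma-trend), other filters, a cycle term, separate fits, a block by circadian time, leaving out libraries, a prior count of 0.25, and a rank test after eJTK (132 templates, 1000000 random orders) in Python 3.11.15 with numpy 2.4.6 and pandas 2.3.3. The edgeR model and the eJTK-like test were each checked on simulated data.

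The members and the gene lists were chosen with earlier results of these data known. Named are the 10 members, 6 genes of the unfolded protein response, and the label check genes. Also named are pathway genes with an adjusted p under 0.05 (up to 8 per test), and the genes most like the members' mean (8) or Derl3 (5). The values of 1 pathway gene are not reported here. Deviations from the group means were correlated between Ctrl and SCNx libraries of the same circadian time. Of 12 pairs, 5 had a correlation above 0.1 (range -0.444 to 0.335). These deviations still held the rhythm and the RNA of other tissues in single libraries, and unmatched pairs were not compared. The values thus cannot show whether libraries of the same time deviated together. The main fit has no block, and a fit with a block is given below.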

Additional observations from a re-analysis of the deposited data

Results flagged for a closer look

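The 24 h rhythm differed between Ctrl and SCNx by the test of the difference itself (edgeR's quasi-likelihood F test, BH adjustment over 13697 genes) for 5 of the genes reported here, none of them a member. They are the clock genes Nr1d1 (adjusted p = 0.000229, amplitude 2.502 ± 0.20 in Ctrl and 0.24 ± 0.17 in SCNx), Arntl (adjusted p = 0.000384, 2.23 ± 0.08 and 0.63 ± 0.27) and Dbp (adjusted p = 0.000686, 2.04 ± 0.05 and 0.53 ± 0.23). The ER genes are Sdf2l1 (adjusted p = 0.0157, 0.89 ± 0.12 and 0.43 ± 0.08) and Xbp1 (adjusted p = 0.0316, 0.59 ± 0.05 and 0.25 ± 0.06). The call for Xbp1 was lost in some of the fits that left out a single library, as described above. Over all 13697 genes the difference was called for 291 (2.12%).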

How the results depend on the processing

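Leaving out each of the 24 libraries in turn gave 5 to 7 members, 4 to 8 pathway genes and 918 to 2249 genes of all with a rhythm in Ctrl, and 0 members, 0 pathway genes and 0 to 6 genes in SCNx. For the difference it gave 0 members, 0 to 2 pathway genes and 163 to 466 genes, for the level 0, 0 and 0 to 3, and for the 12 h component 0, 0 and 0 to 3 in Ctrl and 0, 0 and 0 to 20 in SCNx. Without Ctrl CT4 and SCNx CT32 there were 2223 rhythmic genes in Ctrl, 504 differences with 2 pathway genes among them, and 3 genes with a 12 h component in Ctrl. Without SCNx CT40 and CT44, which were picked for their high values, there were 170 differences with 1 member among them. DESeq2 called 432 genes in SCNx with 2 members and 1 pathway gene, 589 differences with 3 pathway genes, 14 levels, and 33 and 11 genes with a 12 h component in Ctrl and SCNx. Without a filter on low counts edgeR called 1384 genes in SCNx with 2 members and 1 pathway gene, 654 differences, 1370 genes at 12 h in Ctrl with 1 member and 1 pathway gene, and 2202 in SCNx with 2 pathway genes. The rank test called 923 genes in Ctrl with 3 pathway genes, and separate fits called 2 genes at 12 h in Ctrl. The replicate block by circadian time gave 98 differences, 0 of them members, and 0 levels, and it changed no call of a member in these 2 tests. In KO, TMM gave ratios of 1.02 for Sel1l and 1.155 for Os9. The cause of these shifts was not tested. Depth limits Derl3 most, with 29 to 258 reads per library in Ctrl.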
